A study of Homo sapiens with 5 samples.

Results

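The pentose phosphate pathway branches off glycolysis and turns sugar phosphates into NADPH, the reducing agent used against oxidants and in lipid synthesis, and into ribose phosphate for nucleotides. Its oxidative branch makes NADPH irreversibly, and its non-oxidative branch interconverts sugar phosphates through isomerases, transketolase and transaldolase. Transketolase needs thiamine diphosphate, the active form of vitamin B1, and TKTL1 is a transketolase-like gene on the X chromosome that is known from testis and from tumours. The 8 genes described here are TKTL1, TKTL2, TKT, TALDO1, PGLS, PGD, RPIA and RPE, out of 20220 usable RefSeq entries. The group was chosen by the measured rise of TKTL1 in treated cells together with pathway membership, so the values of TKTL1 in that comparison are a description and support nothing further.

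RNA was sequenced from HEK 293T, a line grown from human embryonic kidney, which expresses large T antigen of SV40 and is labelled as non-malignant. The treated group held 2 libraries from cells given 1.0 µM 5-aza-2'-deoxycytidine (5-aza-CdR, a cytidine analogue that traps DNA methyltransferases in DNA) for 3 days, with fresh medium every day. The recovery group held 1 library from cells grown for 30 days without the drug after that treatment, and the control group held 2 libraries from cells that never received it. The authors deposited 1 FPKM value per gene and group, which is a fragment count scaled to transcript length and sequencing depth and so lets levels be compared between genes. These values do not show the spread between replicates. Tests come from the q-values that the authors gave for each group against control, and a gene is called where q was under 0.05. Low values put the depth behind the treated value at 1.32 times and behind the recovery value at 0.652 times that of control.

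Promoter sequences are shown for the transketolase genes because the drug acts on methylation of cytosines that stand before guanines (CpG). RefSeq windows on GRCh38.p14 run from 250 bases before to 50 bases after a gene's start, were found for all 8 members, and are printed 5′ to 3′ on the gene's strand with each CpG in capitals. TKTL1 has 2 annotated starts (plus strand, chrX:154295545-154295844 and chrX:154304920-154305219), and TKT has 1 (minus strand, chr3:53255973-53256272). Which TKTL1 start was in use is not shown by 1 value per gene.
TKTL1 first start: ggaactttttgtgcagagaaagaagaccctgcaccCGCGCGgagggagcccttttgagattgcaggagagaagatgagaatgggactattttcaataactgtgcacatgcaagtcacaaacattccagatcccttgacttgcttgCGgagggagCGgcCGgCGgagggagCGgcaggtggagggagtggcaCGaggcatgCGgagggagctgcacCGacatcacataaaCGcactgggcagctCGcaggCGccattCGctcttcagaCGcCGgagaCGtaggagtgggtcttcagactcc
TKTL1 second start: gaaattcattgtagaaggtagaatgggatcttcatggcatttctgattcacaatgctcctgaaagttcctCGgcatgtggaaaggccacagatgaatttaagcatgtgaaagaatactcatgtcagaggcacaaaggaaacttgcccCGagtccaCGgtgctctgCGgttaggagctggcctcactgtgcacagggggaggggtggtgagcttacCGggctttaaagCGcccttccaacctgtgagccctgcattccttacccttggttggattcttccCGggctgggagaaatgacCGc
TKT: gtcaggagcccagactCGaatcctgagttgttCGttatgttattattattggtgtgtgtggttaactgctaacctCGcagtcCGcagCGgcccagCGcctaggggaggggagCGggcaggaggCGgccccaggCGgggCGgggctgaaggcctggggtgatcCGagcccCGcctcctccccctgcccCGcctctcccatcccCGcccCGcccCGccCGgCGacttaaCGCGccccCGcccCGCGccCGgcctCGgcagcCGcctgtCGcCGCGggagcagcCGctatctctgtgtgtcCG
The first TKTL1 window holds 18 CpG, more than 55.5% of the 35116 windows in the table, and the second holds 8, more than 39.3%. The TKT window holds 31 CpG, more than 79.3% of windows. TKTL2 and RPE have 24 CpG each, PGLS 27, RPIA 29, PGD 35 and TALDO1 44, so both TKTL1 windows lie below those of the other 7 members, whose range is 24 to 44. CpG was searched as the letters CG, which read alike on both strands, and 96.0% of all windows hold at least 1 of them, with a median of 14. The observed number of CpG relative to that given by base composition was 0.743 and 0.403 in the TKTL1 windows and 0.832 in that of TKT. In the authors' deposited table TKTL1 carries the mark of affected DNA methylation and the other 7 members do not. How that mark was made is not given. That mark is on 14.1% of all entries. A second deposited mark, of high expression, is on TKT, TALDO1, PGD and RPE and not on TKTL1. It is on 12.8% of all entries.

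TKTL1 (NM_001145933, chromosome X, 153524027 to 153558713, hg19) was at 100 FPKM in treated cells, 16.3 FPKM in recovery and 2.42 FPKM in control cells. Treated cells were thus the highest group and recovery lay between them and control. The treated value was 41.4 times the control value, with q = 0.0329 in the authors' deposited table. Among the 16 genes called higher in treated cells from a control above 0, this was the largest ratio, ahead of PEG10 at 14.2. In all 122 entries were called higher, and the rest were listed at 0 in control and have no ratio. Entries without a call were not ranked, and some of them had a larger ratio. For MAFF, whose control value was 0.0915 FPKM, it was 64.9. NM_145665 exceeded the TKTL1 ratio too, with a control value of 1.01 FPKM and a treated value of 85.2 FPKM. So did ZNF22 (control 0.0924, treated 9.09 FPKM) and SLC43A3 (control 0.0772, treated 7.95 FPKM). Of these uncalled entries NM_145665 had the highest control value. In recovery TKTL1 was 6.75 times the control value without a call (q = 0.451 in the authors' deposited table). Recovery against treated cells gave a log2(FPKM + 1) difference of -2.55, with no test deposited for that pair. Of the treated rise in FPKM, 14.2% was present in recovery, or 47.9% on the log2(FPKM + 1) scale. TKTL1 exceeded 96.9% of RefSeq entries in treated cells, 77.9% in recovery and 51.3% in control.

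TKTL1 was above TKT in treated cells and below it in recovery and control. TKT (NM_001064, chromosome 3, 53258723 to 53290130), the transketolase that most tissues use, was at 66.8 FPKM in treated cells, 88.7 FPKM in recovery and 82.1 FPKM in control cells, with q of 0.981 and 0.998 in the authors' deposited table for treated and recovery. TKTL2 (NM_032136, chromosome 4, 164392247 to 164395047), an intronless relative, was at 0.377 FPKM in treated cells, 0.109 FPKM in recovery and listed at 0 in control. The TKTL2 values correspond to smallest fragment numbers of 7 in treated cells, 1 in recovery and 0 in control, so its level rests on very few reads. Summed over the 3 genes, transketolase family FPKM was 167 in treated cells, 105 in recovery and 84.6 in control. TKTL1 made up 59.9% of that sum in treated cells, 15.5% in recovery and 2.86% in control, and its level was 1.5 times that of TKT in treated cells, 0.184 times in recovery and 0.0294 times in control. These are sums and ratios of single group values without an error, and transcript level is not enzyme activity.

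**Figure D1:**
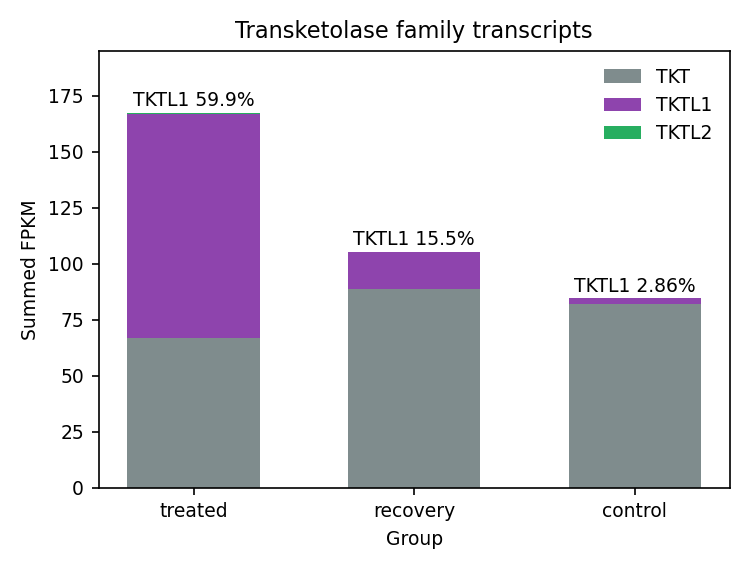
Stacked FPKM of TKT, TKTL1 and TKTL2 in the treated, recovery and control groups, 1 deposited value per gene and group. The TKTL1 segment is 59.9% of the bar in treated cells, 15.5% in recovery and 2.86% in control, while TKTL2 is too low to see.

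Transaldolase works beside transketolase in the non-oxidative branch. TALDO1 (NM_006755, chromosome 11, 747432 to 765024) was the most abundant member in every group, at 216 FPKM in treated cells, 160 FPKM in recovery and 142 FPKM in control. Treated cells stood 1.52 times above control, with q = 0.927 in the authors' deposited table. RPIA, the isomerase that makes ribose 5-phosphate (NM_144563, chromosome 2, 88991176 to 89050452), was at 19.2 FPKM in treated cells, 15.3 FPKM in recovery and 7.82 FPKM in control. Its treated value was 2.46 times that of control, the largest ratio among members above 0 in control after TKTL1, with q = 0.847 in the authors' deposited table, so no change was called. A treated difference larger in size than that of RPIA was seen in 14.4% of the tested entries. RPE, the epimerase of ribulose 5-phosphate (NM_001278282, chromosome 2, 210867289 to 211036051), was at 19.2 FPKM in treated cells, 15.8 FPKM in recovery and 30.8 FPKM in control. Control exceeded treated cells 1.61-fold, and no call was made in either comparison (lowest q = 0.847 in the authors' deposited table). The RPE entry spans 168763 bases against 19623 for the gene in RefSeq and takes in the neighbouring gene KANSL1L, so its value cannot be given to RPE alone.

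PGD and PGLS, the members from the oxidative branch, were not called. PGD, the 6-phosphogluconate dehydrogenase that makes NADPH (NM_002631, chromosome 1, 10459085 to 10480201), was at 67.7 FPKM in treated cells, 69.8 FPKM in recovery and 97.5 FPKM in control, with q = 0.939 in both comparisons of the authors' deposited table. PGLS, the lactonase before it (NM_012088, chromosome 19, 17622432 to 17632097), was at 38.3 FPKM in treated cells, 40.5 FPKM in recovery and 36.9 FPKM in control (q = 0.998 in both comparisons of the authors' deposited table). PGD was thus highest in control, and the PGLS values lay within a few FPKM of each other.

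**Figure D2:**
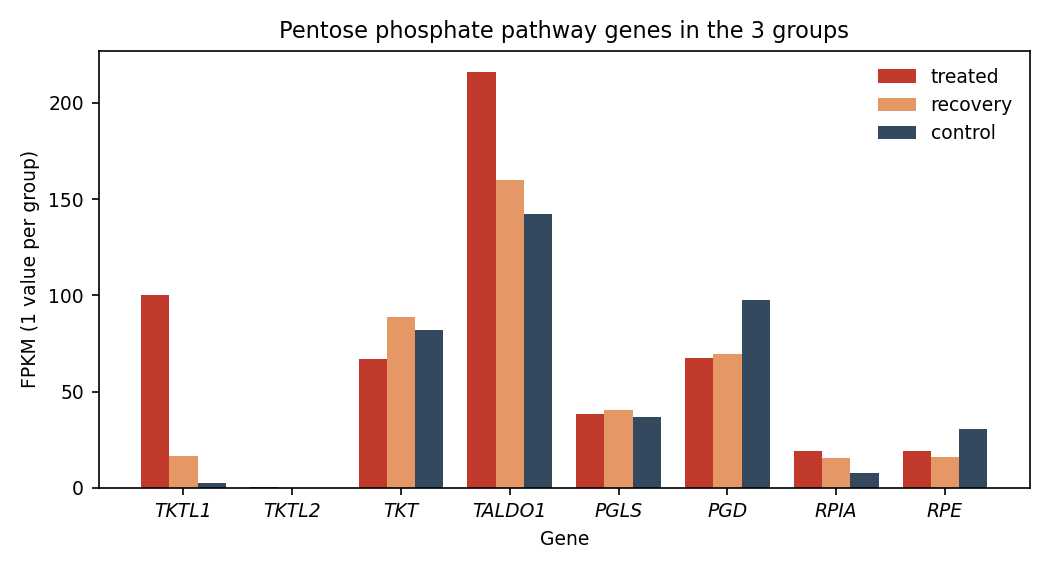
FPKM of the 8 pathway genes, 1 bar per group (treated, recovery, control) and no error bars because only group values were deposited. TKTL1 stands at 100 FPKM in treated cells against 2.42 FPKM in control, while TALDO1 is the highest gene in all groups.

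Across the 8 members, 1 was called higher and 0 lower in treated cells, against 1.08% of the 11256 tested RefSeq entries called higher and 0.275% called lower. The 1 call is TKTL1, which chose the group, so nothing is read from that count. In recovery 0 of 8 were called, against 0.895% called higher and 0.447% called lower of 11174 tested entries. A tested entry is one with a q under 1, which TKTL2 lacked in both comparisons. The 7 members that averaged at least 0.5 FPKM over the groups had a median log2(FPKM + 1) change of 0.05 in treated cells and 0.13 in recovery, beside -0.01 and -0.02 over the tested entries. Without RPE the treated median was 0.33, and with each group scaled to its total without the 10 highest entries the recovery median was -0.18, where that scaling moved the median of the tested entries by -0.30. Without TKTL1 the remaining 6 ranged from -0.66 (RPE) to 1.20 (RPIA) in treated cells and from -0.92 (RPE) to 0.89 (RPIA) in recovery, with medians of -0.12 and 0.12. The middle 50% of tested entries lay between -0.45 and 0.46 in treated cells and between -0.40 and 0.42 in recovery. The treated and recovery values share the control, so they are not independent of each other.

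**Figure D3:**
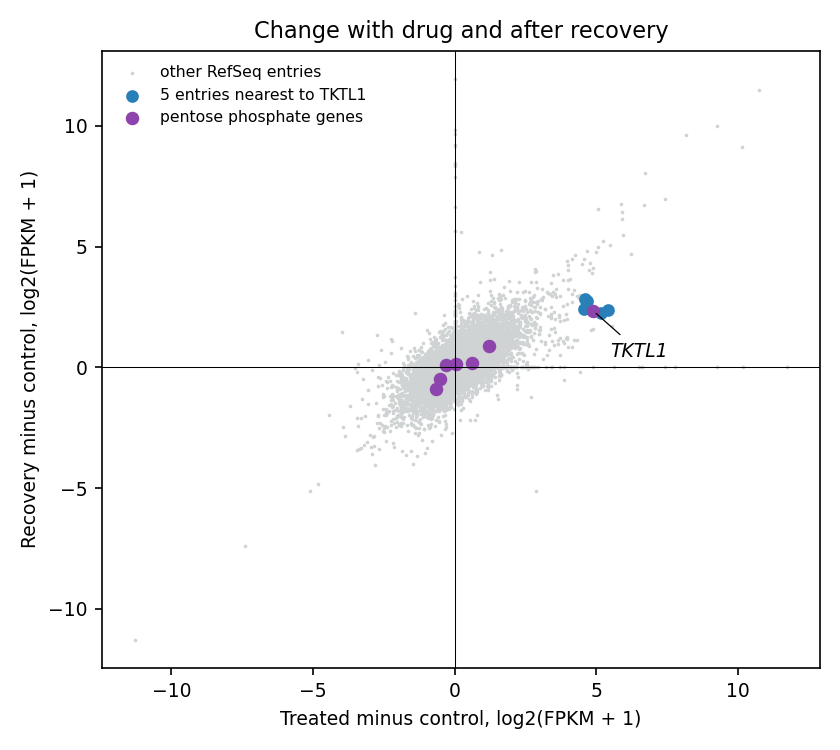
Change in log2(FPKM + 1) from control in treated cells (horizontal axis) and in recovery (vertical axis) for entries with a mean of 0.5 FPKM or more, with both axes sharing the control value and with the 5 entries nearest to TKTL1 in blue. TKTL1 lies at 4.89 and 2.34, apart from the other pathway genes, which range from -0.66 to 1.20 on the horizontal axis.

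The patterns most like that of TKTL1 were sought as the smallest distance between pairs of log2(FPKM + 1) changes among 12711 other entries, a measure over only 3 group values. The metallothionein genes MT1E (distance 0.30) and MT1A (0.31), the X-linked testis gene SPANXN3 (0.48), the entry NM_145665 on chromosome X (0.54) and C19orf33 (0.55) were nearest. MT1E was at 34.9 FPKM in treated cells, 3.72 FPKM in recovery and listed at 0 in control. NM_145665 was at 85.2 FPKM in treated cells, 9.46 FPKM in recovery and 1.01 FPKM in control, and of these 5 entries it alone was above 0 in control. MT1E and SPANXN3 were called higher in treated cells (q = 0.0147 for each in the authors' deposited table). MT1A (q = 0.0761), C19orf33 (q = 0.927) and NM_145665 (q = 0.939) were not called. None of the 5 was called in recovery (lowest q = 0.431). MT1E and MT1A carry the mark of affected DNA methylation, as TKTL1 does, and the others do not. With a pseudocount of 0.1 FPKM, 0 of these 5 entries remained among the nearest 5, so the order rests on that choice. Metallothioneins and SPANX genes are families of close copies, between which fragments can be misassigned.

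Genes beside TKTL1 on the X chromosome were compared in the same way. FLNA, an actin-crosslinking filamin 18.2 kb beyond TKTL1, was at 412 FPKM in treated cells, 309 FPKM in recovery and 97.9 FPKM in control. That is 4.21 times and 3.16 times control, without a call (q = 0.269 and 0.371 in the authors' deposited table). EMD, which encodes the nuclear envelope protein emerin, was 1.72 times control in treated cells, and the entry of the ribosomal protein gene RPL10 1.37 times. That RPL10 entry runs from 153626571 to 153650063, and whether it takes in other genes was not checked. On the other side the cone opsin genes OPN1LW and OPN1MW were listed at 0 in all groups. The FLNA, EMD and RPL10 entries were therefore higher in treated cells than in control, by less than TKTL1, and none of these 3 entries was called. In the authors' long noncoding RNA table, 2 of 9423 loci lay within 10 kb of a member, beside TKTL1 and RPIA. The locus beside RPIA was called higher in treated cells, as were 6.95% of the 979 tested loci.

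The related lists hold genes that feed, drain or control the pathway, and 79 of their 90 genes were measured. PGD and PGLS are in the oxidative list as well as among the 8 members. GPI is in both the ribose and the glycolysis list. GCLM, TXNRD1 and SRXN1 are in both the glutathione and the NRF2 list, so the medians of these lists share genes. Genes without an entry of their own include ALDOA, ENO1 and SLC2A1 of the glycolysis list. In treated cells 0 of the 79 were called, 70 of them with a q under 1, the lowest q being 0.0953 for ME3 in the authors' deposited table. In recovery 2 were called, of 71 with a q under 1, both higher than a control listed at 0. Over all tested RefSeq entries 1.08% were called higher and 0.275% lower in treated cells, and 0.895% higher and 0.447% lower in recovery. With shares this low, counts of 0 and 2 say little about these lists. PFKFB4, a bifunctional enzyme that sets the level of the glycolysis activator fructose 2,6-bisphosphate, rose to 2.16 FPKM in recovery (q = 0.0147 in the authors' deposited table) and was at 0.980 FPKM in treated cells. AKR1C1, an NADPH-dependent aldo-keto reductase and NRF2 target with close copies, rose to 4.58 FPKM in recovery (q = 0.0465 in the authors' deposited table) and was at 1.66 FPKM in treated cells. Both are low levels. The medians given for these lists leave out genes that averaged under 0.5 FPKM, which were 3 of 15 in the ribose list and 3 of 14 in the NRF2 list.

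Among 12 measured genes of the oxidative branch and NADPH supply, 0 were called in either comparison, and the median log2(FPKM + 1) change was -0.34 in treated cells and -0.13 in recovery. MTHFD2, a mitochondrial folate enzyme, was at 70.1 FPKM in treated cells, 174 FPKM in recovery and 175 FPKM in control (q = 0.142 for treated in the authors' deposited table). ME3, a mitochondrial malic enzyme, was at 1.86 FPKM in treated cells, 0.150 FPKM in recovery and listed at 0 in control. MTHFD2 was thus lowest in treated cells and near control in recovery, and ME3 was above 1 FPKM in treated cells alone. Among 15 genes of ribose use, nucleotide entry and neighbouring sugar phosphates, 0 were called, with medians of 0.11 in treated cells and 0.04 in recovery. PRPS1, which makes phosphoribosyl pyrophosphate from ribose 5-phosphate, was outside the naming rule and is given as the step that follows RPIA, at 76.7 FPKM in treated cells, 58.8 FPKM in recovery and 57.0 FPKM in control. The largest treated differences were those of FBP2, a muscle fructose bisphosphatase (2.32 FPKM in treated cells, 0.494 FPKM in recovery, listed at 0 in control), and IDNK, a gluconokinase (2.86 FPKM in treated cells, 5.77 FPKM in recovery, 0.919 FPKM in control). FBP2 and ME3 averaged at least 0.5 FPKM through their treated values alone, so nothing is read from their being named.

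Of 19 glycolysis genes, 0 were called in treated cells and 1, PFKFB4, in recovery, with medians of 0.33 in treated cells and 0.05 in recovery. TIGAR, a phosphatase that lowers fructose 2,6-bisphosphate, was at 10.8 FPKM in treated cells, 8.35 FPKM in recovery and 4.27 FPKM in control, and the glucose transporter SLC2A3 was at 67.3 FPKM in treated cells, 35.7 FPKM in recovery and 32.5 FPKM in control. Treated cells had the highest value of both genes. Of 13 glutathione and thioredoxin genes, which use NADPH against oxidants, 0 were called, with medians of -0.11 in treated cells and -0.14 in recovery. GSS, glutathione synthetase, was at 39.8 FPKM in treated cells, 57.1 FPKM in recovery and 74.7 FPKM in control, and PRDX3, a mitochondrial peroxiredoxin, was at 138 FPKM in treated cells, 177 FPKM in recovery and 233 FPKM in control.

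Among 14 measured genes of NRF2, the transcription factor of the oxidant response (gene NFE2L2), and its targets, 0 were called in treated cells and AKR1C1 in recovery, with medians of 0.17 in treated cells and 0.16 in recovery. MAFF, a small partner of NRF2, was at 5.94 FPKM in treated cells, 2.11 FPKM in recovery and 0.0915 FPKM in control, without a call. The 10 measured genes of thiamine uptake, activation and use had 0 calls, with medians of -0.20 in treated cells and 0.12 in recovery. THTPA, a thiamine triphosphatase, was at 4.95 FPKM in treated cells, 4.41 FPKM in recovery and 13.3 FPKM in control, and BCKDHA, a subunit of a thiamine diphosphate enzyme that breaks down branched-chain amino acids, was at 15.9 FPKM in treated cells, 22.2 FPKM in recovery and 28.5 FPKM in control. Control was highest for both.

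**Figure D4:**
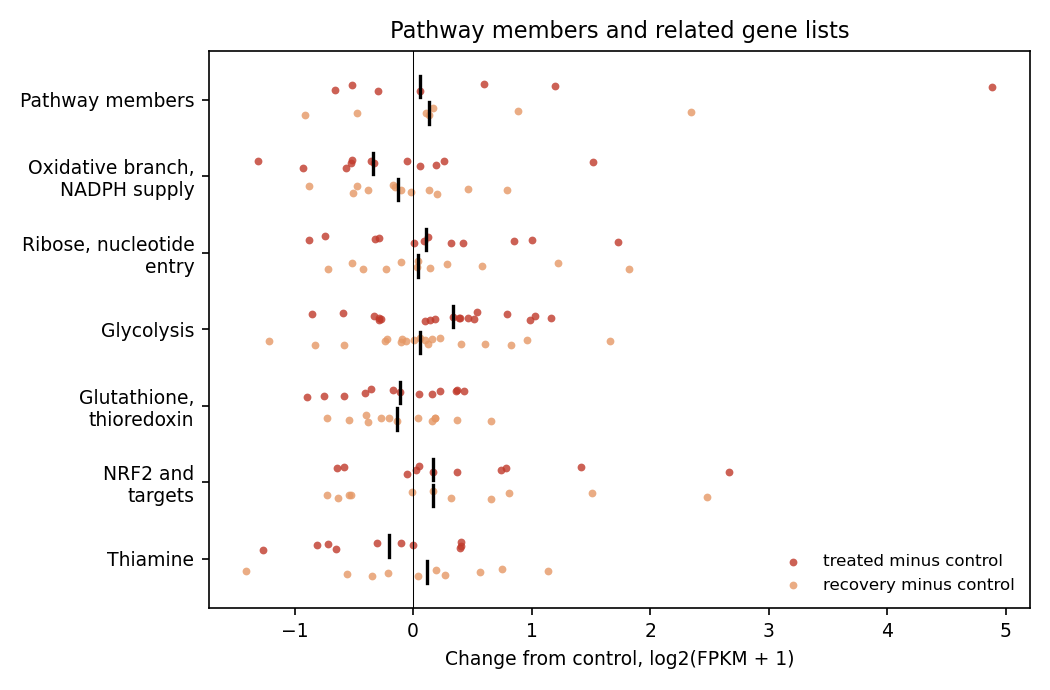
Change in log2(FPKM + 1) from control for the pathway members and 6 related lists, 1 point per gene with a mean of 0.5 FPKM or more, treated above recovery, and a bar at each median. The treated median is 0.33 for glycolysis and -0.34 for the oxidative branch and NADPH supply, and the point at 4.89 is TKTL1.

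The label was checked against markers. VIM, KRT18 and NEFL, chosen for HEK 293T, were at 181, 418 and 22.2 FPKM in treated cells and at 316, 231 and 28.9 FPKM in control, while the kidney genes PAX2 and LHX1 were at 0.146 and 0.390 FPKM in treated cells and at 0 and 1.83 FPKM in control. PAX2 was thus at or near 0 in both groups, and LHX1 was below 2 FPKM. Because TKTL1 is known from testis, germ cell markers are set beside it. DDX4 was at 0.934 FPKM in treated cells, 0.378 FPKM in recovery and listed at 0 in control, and the sperm genes TNP1 and PRM1 were listed at 0 in all groups, so 2 of the 3 measured markers were at 0 throughout. Summed blood markers were 5.68 FPKM in treated cells and 0.317 FPKM in control, summed endothelial markers 1.04 and 0.0214 FPKM, and summed fibroblast markers 2.69 and 3.81 FPKM in the same order. Their part in the TKTL1 values was not tested. In RNA from whole cultures, fewer cells with a transcript and less transcript per cell cannot be told apart.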

How the data were processed

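RNA from 5 libraries, depleted of ribosomal RNA and made directional by dU marking per the labels' protocols, was processed with Cufflinks and with Cuffdiff (per the submitters' processing notes, versions not given). Those notes list hg19 and mm9. Aligner and annotation release: not given in the sources used here. Per gene the authors deposited FPKM for each group with replicates combined, per the file headers, together with q-values for treated and recovery against control. The authors also deposited 2 text marks headed SOM. The deposited yes or no calls matched q under 0.05 in all entries. Coordinates are taken as hg19 and are printed 1-based.

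Of 20221 RefSeq entries, 1 with shifted cells was left out, as were 2 of 21627 lncRNA transcripts. RefSeq's table (GRCh38.p14) named 19665 of 20220 entries. All value columns were matched to groups (0 unmatched). Only group values were deposited, so limma was not run and calls are the authors'. Changes are differences of log2(FPKM + 1), which understates low genes, and medians use entries with a mean of 0.5 FPKM or more. No ratio is given against a group at 0. The labels speak of triplicate growth but do not tie libraries to cultures, so q-values may measure technical spread only.

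Total depth is unknown. Relative depth came from the commonest ratio of a group's value to control. For treated cells it was 0.757, shared by 91 of 12366 genes, and for recovery 1.53, shared by 98 of 12095. Smallest fragment numbers were searched up to 5 in the lowest group, within 0.02 fragments, after a test on simulated data. TKTL1 gave no match.

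The members and lists were chosen with earlier results of these data known. Named are all members, called list genes or otherwise the 2 with the largest treated difference, the 5 entries nearest to TKTL1, 3 neighbours on each side (1 of them is not reported here), and lncRNA loci within 10 kb. Values were computed with Python 3.11.15 and pandas 2.3.3. Alternatives were a q of 0.10, pseudocounts of 0.1 and 0.01, 3 scalings and other low-value filters.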

Additional observations from a re-analysis of the deposited data

Results flagged for a closer look

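A signal above control appeared in the authors' long noncoding RNA table at both loci that lie within 10 kb of a pathway gene. That table was scaled apart from the RefSeq table, so its FPKM are not compared with those above. The locus TCONS_00004327 (chromosome 2, 88986204 to 88991016, hg19) ends 159 bases before the RPIA entry. It was at 399 FPKM in treated cells, listed at 0 in recovery and listed at 0 in control, with q = 0.0241 for treated in the authors' deposited table. RPIA itself was at 19.2 FPKM in treated cells and 7.82 FPKM in control without a call. The locus TCONS_00017107 (chromosome X, 153562310 to 153563387) starts 3596 bases beyond TKTL1. It was listed at 0 in treated cells, at 172 FPKM in recovery and listed at 0 in control, with q = 0.237 for recovery in the authors' deposited table, while TKTL1 was highest in treated cells. The table gives no strand, and a value at 0 can be a failed estimate.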

How the results depend on the processing

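Of 192 recomputed values, 10 changed sign, 9 of them when groups were scaled to their totals and 7 of them medians. The change of TKTL1 kept its sign under all 10 alternatives of pseudocount and scaling in the 2 comparisons. With changes of 4.89 in treated cells and 2.34 in recovery, that outcome was all but fixed in advance. TKTL1 was also chosen by its treated rise, so nothing is read from the kept sign. When each group was scaled to its total without the 10 highest entries, the median over tested entries shifted by 0.11 in treated cells and by -0.30 in recovery, and the recovery changes of TKT (-0.21), TALDO1 (-0.16) and PGLS (-0.18) turned negative. In recovery the medians of the members (-0.18), the ribose list (-0.28), glycolysis (-0.27), NRF2 (-0.14) and thiamine (-0.20) were then negative too, and in treated cells that of the glutathione list was 0.0042. The treated median of the members was -0.12 without TKTL1. Without RPE, left out after its entry was seen to span a second gene, the treated median of the members was 0.33. With calls at q under 0.10, 1 gene of the oxidative and NADPH list, ME3, was called in treated cells. Leaving out entries at 0 in control, an alternative chosen after seeing the data, 0 genes of the glycolysis list and 0 of the NRF2 list were called in recovery. Of 60 recomputed list medians, 6 moved by 0.25 or more on the log2 scale, all in recovery under the scaling to the total. No paired analysis was possible because only 1 value per group was deposited, and replicates could not be left out in turn for the same reason. Depth limits TKTL2, with a smallest number of 7 treated fragments, and the intronless copies, with fewer.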

Other observations

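Testis isozymes of sugar metabolism were looked at as a group after the values of TKTL1 had been seen, since TKTL1 is itself known from testis. Of 8 such genes, 6 were listed at 0 in control, and 3 had a q under 1 in treated cells and 2 in recovery, so most were not tested. None of those tested was called, where 1.08% of tested entries were called higher and 0.275% lower in treated cells, and 0.895% higher and 0.447% lower in recovery. Over the 5 genes that averaged at least 0.5 FPKM, the median log2(FPKM + 1) change was 1.00 in treated cells and 0 in recovery. The treated changes were -1.90 for LDHC, -1.87 for PDHA2, 1.00 for ENO4, 1.38 for LDHAL6B and 1.97 for GAPDHS. LDHAL6B reached that average through its treated value alone, so nothing is read from these medians. GAPDHS, the sperm glyceraldehyde 3-phosphate dehydrogenase, was at 2.93 FPKM in treated cells, 1.76 FPKM in recovery and listed at 0 in control. LDHC, the testis lactate dehydrogenase, was lower than control, at 3.13 FPKM in treated cells, 9.93 FPKM in recovery and 14.4 FPKM in control (q = 0.878 for treated in the authors' deposited table). PDHA2, the testis copy of a pyruvate dehydrogenase subunit, was listed at 0 in treated cells, at 1.20 FPKM in recovery and at 2.65 FPKM in control. ENO4 was at 0.999 FPKM, LDHAL6A at 0.940 FPKM and LDHAL6B at 1.61 FPKM in treated cells, and all 3 were listed at 0 in control. The LDHAL6B entry spans 236904 bases against 1746 for the gene, so its value cannot be given to that gene alone. PGK2, the testis phosphoglycerate kinase, was at 0.0941 FPKM in treated cells and listed at 0 in the other groups, and GK2, a testis glycerol kinase, was listed at 0 in all groups.

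Intronless copies of pathway genes stayed low. PRPS1L1 was at 0.632 FPKM in treated cells, 0.320 FPKM in recovery and listed at 0 in control, with smallest numbers of 4, 1 and 0 fragments. RPEL1 was listed at 0 in treated cells, at 0.294 FPKM in recovery and at 0.192 FPKM in control, with smallest numbers of 0, 1 and 1.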
